A study of Mus musculus with 4 samples.

Results

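The 9 genes described here encode the receptor chains through which blood progenitors sense the myeloid cytokines GM-CSF, IL-3, IL-5, G-CSF, M-CSF and IL-6. They were chosen by name, as Csf2ra, Csf2rb, Csf2rb2, Il3ra, Il5ra, Csf3r, Csf1r, Il6ra and Il6st, and all 9 were measured among 19938 genes, each by 1 probe set. These genes and the marker and pathway lists used below were chosen with earlier results of these data known. Counts over them set beside all genes are therefore descriptions and not tests. RNA was measured on 4 Affymetrix arrays. The 2 null arrays held LSK/Flt3- bone marrow cells of mice labelled Vav-Cre/Hdac3Flox/-, in which Cre made from the Vav promoter removes Hdac3, a histone deacetylase gene, in blood cells. Of the 2 wild-type arrays, 1 held LSK/Flt3- and 1 LSK/Flt3+ cells. LSK cells are the lineage-negative marrow fraction positive for Sca-1 and Kit, which holds blood stem cells and early progenitors, and surface Flt3 appears as these cells leave the stem cell state. All mice were of the C57BL/6 background, each array held sorted cells pooled from 5 to 30 mice, and the sources used here give neither ages nor whether the wild-type mice carried Cre. They do not say either that the null replicates came from separate mice, so each p-value rests on a spread between samples that may be technical.

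GM-CSF, IL-3 and IL-5 each bind an alpha chain of their own, which pairs with a shared beta chain that carries the signal to JAK2 and STAT5. Mice have an additional beta chain, encoded by Csf2rb2, that serves IL-3 alone. G-CSF binds Csf3r, a receptor of granulocyte production, and M-CSF binds Csf1r, a tyrosine kinase that defines the monocyte and macrophage lineage. IL-6 binds Il6ra, and the complex signals through Il6st (gp130), a chain shared by the IL-6 family and present on most cells.

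The RMA values are log2 expression, so a difference of 1 is a 2-fold change. Array medians over all probe sets were 5.30 to 5.60, and the median gene stood 0.09 higher on the null arrays than on the wild-type LSK/Flt3- array and 0.05 higher than on the wild-type LSK/Flt3+ array, offsets against which differences of single genes are to be read. The null replicates differed by at least 2-fold for 2.82% of all genes and for 0 of the 9 receptors, whose replicate gaps ran from 0.07 to 0.38. Both null arrays were set against each wild-type array in turn in a limma fit over all genes, and because these comparisons share the null arrays they are not independent of each other. Kit stood at 10.77 and 10.36 on null replicates 1 and 2 and at 10.25 and 10.11 on the LSK/Flt3- and LSK/Flt3+ arrays of wild type, and Cd34 at 9.77, 9.90, 10.34 and 10.58 in the same order. Ly6a, which encodes Sca-1, was not named by the array's annotation. Hdac3 itself stood at 5.71 and 5.04 on the null arrays against 6.18 and 6.33 in the wild-type fractions. Its difference was -0.81 ± 0.38 (SE) from wild-type LSK/Flt3- and -0.96 ± 0.38 (SE) from wild-type LSK/Flt3+, and neither passed the limma test. Where its probes lie relative to the deleted part was not given.

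Csf2rb2, Csf3r and Csf2ra were above wild-type LSK/Flt3- on both null arrays, as were 41.3% of all genes, Csf2ra by only 0.29 ± 0.36 (SE). To show the regulatory sequence in front of them, the 250 bases before the gene start are printed from RefSeq's promoter windows on build GRCm38.p6. Csf2rb, which was higher too, is not in that table, nor is Csf1r; the other 7 members matched. The windows are chr15:78305722-78305971 on the minus strand, chr4:126024409-126024658 on the plus strand and chr19:61228419-61228668 on the minus strand, each written 5′ to 3′ along the gene. Capitals mark matches on either strand to the motifs searched, which were GAGGAA for PU.1, TTGCNNAA for C/EBP, TGTGGT for RUNX, AGATAA for GATA and TTCNNNGAA for STAT factors.
Csf2rb2: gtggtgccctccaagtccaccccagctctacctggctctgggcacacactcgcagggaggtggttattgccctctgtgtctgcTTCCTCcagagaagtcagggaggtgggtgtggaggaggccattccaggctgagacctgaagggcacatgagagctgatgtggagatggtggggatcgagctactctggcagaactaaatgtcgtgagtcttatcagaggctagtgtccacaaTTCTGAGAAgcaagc
Csf3r: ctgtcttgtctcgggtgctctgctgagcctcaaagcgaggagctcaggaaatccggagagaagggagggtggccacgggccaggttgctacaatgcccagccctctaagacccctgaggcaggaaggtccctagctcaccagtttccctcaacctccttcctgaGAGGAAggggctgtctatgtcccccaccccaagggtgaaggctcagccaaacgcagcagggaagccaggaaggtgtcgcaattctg
Csf2ra: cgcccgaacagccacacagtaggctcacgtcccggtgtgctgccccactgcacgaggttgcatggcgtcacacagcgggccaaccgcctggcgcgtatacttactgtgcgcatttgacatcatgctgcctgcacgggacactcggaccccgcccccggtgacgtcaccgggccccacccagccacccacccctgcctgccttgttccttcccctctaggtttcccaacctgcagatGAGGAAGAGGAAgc

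In the capitals, Csf2rb2 has a reversed PU.1 match and, close to the gene start, a STAT match; Csf3r has a PU.1 match, and Csf2ra has 2 adjoining PU.1 matches. Over the whole windows, which run on for 50 bases after the start, the PU.1 letters were found in 5 of 7 receptor windows, against 28.3% of all 32851 windows in the table. The C/EBP letters were found in 1 of 7 (10.8% of all windows), in Il3ra. The GATA letters were found in 2 of 7 (11.2% of all), in Il5ra and Il6ra, the STAT letters in 1 of 7 (8.3% of all), in Csf2rb2, and the RUNX letters in 0 of 7 (16.8% of all). These matches describe letters in a short window and are not evidence of binding.

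The shared beta chain and its IL-3-specific neighbour were the receptors farthest above wild type in Hdac3-null LSK/Flt3- cells. Csf2rb, the beta chain common to GM-CSF, IL-3 and IL-5, stood at 8.06 on null replicate 1, 7.97 on null replicate 2, 6.22 in Flt3- wild type and 6.44 in Flt3+ wild type. Both null arrays lay well above both wild-type arrays. On both null arrays 41.3% of all genes were above wild-type LSK/Flt3- and 35.0% above wild-type LSK/Flt3+. The null replicates of Csf2rb differed by only 0.09. The difference from wild-type LSK/Flt3- cells was 1.79 ± 0.35 (SE), or 3.45-fold, with a 95% interval of 1.00 to 2.58. It ranked 16 of 19938 genes from the top, with an unadjusted limma p of 0.000504, and did not pass the limma test after Benjamini-Hochberg adjustment over all genes (adjusted p = 0.347). Against wild-type LSK/Flt3+ cells the difference was 1.58 ± 0.35 (SE; adjusted p = 0.201).

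Csf2rb2, the beta chain that binds IL-3 alone, showed the same order of arrays. It stood at 7.58 and 7.47 on the null arrays, 5.87 in Flt3- wild type and 6.19 in Flt3+ wild type. Both null arrays again lay above both wild-type arrays, to be read beside the same 41.3% and 35.0% of all genes. The difference was 1.65 ± 0.35 (SE), or 3.14-fold, from wild-type LSK/Flt3- (95% interval 0.87 to 2.43, limma adjusted p = 0.476) and 1.33 ± 0.35 (SE) from wild-type LSK/Flt3+ cells (adjusted p = 0.379). Csf2rb and Csf2rb2 are adjacent, with 0 protein-coding genes between them in RefSeq, and are closely related copies. Nothing in the sources used here says whether their probes tell the copies apart, so their values may not be separate measurements. The 9 receptors held 2 genes at least 2-fold above wild-type LSK/Flt3- on both null arrays, these 2 beta chains, where 0.251% of all genes did so. The same 2 were at least 2-fold above wild-type LSK/Flt3+ on both null arrays, as were 0.261% of all genes.

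**Figure D1:**
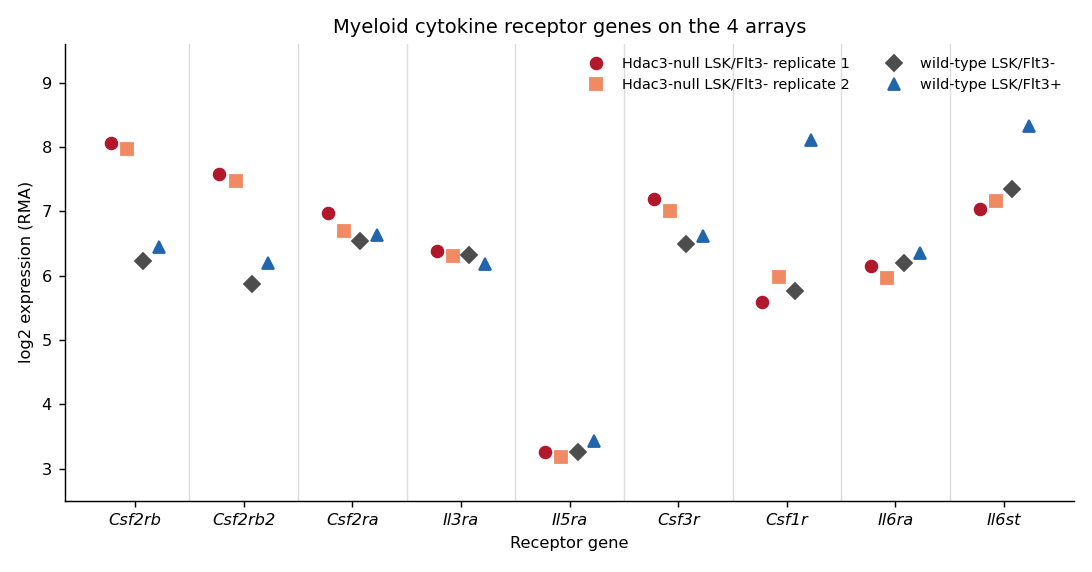
Deposited log2 expression (vertical axis) of each of the 9 receptor genes (horizontal axis) on each of the 4 arrays, 1 symbol per array. For Csf2rb both null arrays sit at about 8 (8.06 and 7.97) with both wild-type arrays below 6.5, and for Csf1r the wild-type LSK/Flt3+ array alone is high, at 8.11; symbols may be compared within a gene but not between genes.

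The alpha chains, which give each cytokine its specificity, stood near their wild-type levels on the null arrays, and none passed the test. Csf2ra, the GM-CSF alpha chain, was 6.97 and 6.69 on the null arrays against 6.54 and 6.63 in wild-type LSK/Flt3- and LSK/Flt3+ cells, so that null replicate 2 lay within 0.06 of wild-type LSK/Flt3+. Its difference from wild-type LSK/Flt3- cells was 0.29 ± 0.36 (SE), with a 95% interval from -0.50 to 1.08 that leaves room for a 2-fold change. Il3ra, the IL-3 alpha chain, was 6.38 and 6.31 on the null arrays against 6.31 and 6.19 in the wild-type fractions. Its difference from wild-type LSK/Flt3- cells was 0.03 ± 0.34 (SE; 95% interval -0.73 to 0.79), with the null arrays on either side of the wild-type value, and the sign turned negative in each of 3 rescalings of the arrays. Il5ra, the IL-5 alpha chain of eosinophils and their precursors, read 3.26 and 3.18 on the null arrays, 3.26 in Flt3- wild type and 3.43 in Flt3+ wild type. Its signal exceeded that of only 3.08% to 6.16% of genes on the arrays. No detection call says whether Il5ra stood above background, so its flat values may hold no information on the transcript. The adjusted p was 1 for each alpha chain in both comparisons.

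Csf3r, the G-CSF receptor, was 7.18 on null replicate 1, 7.01 on null replicate 2, 6.49 in Flt3- wild type and 6.62 in Flt3+ wild type. Both null arrays were above wild-type LSK/Flt3- (41.3% of all genes) and wild-type LSK/Flt3+ (35.0% of all genes), by a smaller margin than for the beta chains. The difference was 0.61 ± 0.35 (SE) from wild-type LSK/Flt3- (95% interval -0.18 to 1.39) and 0.48 ± 0.35 (SE) from wild-type LSK/Flt3+ cells, and it passed neither test (adjusted p = 1).

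Csf1r, the M-CSF receptor, was high on a single array, that of wild-type LSK/Flt3+ cells. It was 5.59 and 5.97 on the null arrays, 5.77 in Flt3- wild type and 8.11 in Flt3+ wild type. The wild-type LSK/Flt3- value lay between the null replicates, and the wild-type LSK/Flt3+ array stood apart from the other 3. Csf1r was thus 2.35 higher, or 5.09-fold, in LSK/Flt3+ than in LSK/Flt3- wild-type cells, a difference with no replicate and no test that ranked 21 of 19938 genes. Of the 9 receptors 1, Csf1r, was at least 2-fold higher in wild-type LSK/Flt3+ cells, where 0.923% of all genes were, and 0 were at least 2-fold lower (0.176% of all genes). By any margin 8 of 9 were higher there, as were 56.6% of all genes. In null LSK/Flt3- against wild-type LSK/Flt3+ cells Csf1r fell by 2.34 on the log2 scale (± 0.36, SE; 95% interval -3.13 to -1.54; limma adjusted p = 0.0250), as did 0.281% of all genes; limma called 0.316% in either direction. This comparison differs in sorted fraction as well as genotype. Csf1r was the only member past the test in either comparison, and its adjusted p ran from 0.00143 to 0.0418 over 7 other settings. Among these, a minimum mean level of 6 is no check, since Csf1r met it only through the wild-type LSK/Flt3+ array. Its difference from wild-type LSK/Flt3- was 0.01 ± 0.36 (SE; 95% interval -0.78 to 0.81), and it turned negative in 3 rescalings.

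Macrophage markers were high on the same array as Csf1r. Of the 10 on the list, 10 were higher in wild-type LSK/Flt3+ than LSK/Flt3- cells (56.6% of all genes), with a median difference of 1.59. At least 2-fold higher were 8 of the 10, against 0.923% of all genes. On both null arrays 9 of 10 were below the wild-type LSK/Flt3+ value, as were 25.1% of all genes. Of the 9, 4 (Adgre1, C1qc, Mrc1 and Cd163) passed the limma test, which called 0.281% of all genes lower. Mrc1, a macrophage mannose receptor, was 4.46 and 4.53 on the null arrays, 4.70 in Flt3- wild type and 8.62 in Flt3+ wild type. C1qc, a complement chain made by macrophages, was 3.59, 4.05, 4.89 and 8.18 in the same order. Adgre1, which encodes the macrophage antigen F4/80, was 4.52, 4.13, 4.20 and 7.17. Cd68, a lysosomal protein gene of macrophages, was 8.02, 8.38, 6.95 and 8.54, with the null arrays close to wild-type LSK/Flt3+. The exception was Cd5l, at 3.92 and 3.36 on the null arrays and 3.35 and 3.37 in the wild-type fractions. The list's summed log2 level was 48.7 to 50.3 on the null arrays, 49.0 in Flt3- wild type and 67.2 in Flt3+ wild type. RMA values have no zero, so no marker can be called absent, and the part of these genes' source cells in the Csf1r result was not tested. In RNA of sorted pools, fewer cells of a type and less RNA per cell cannot be told apart.

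**Figure D2:**
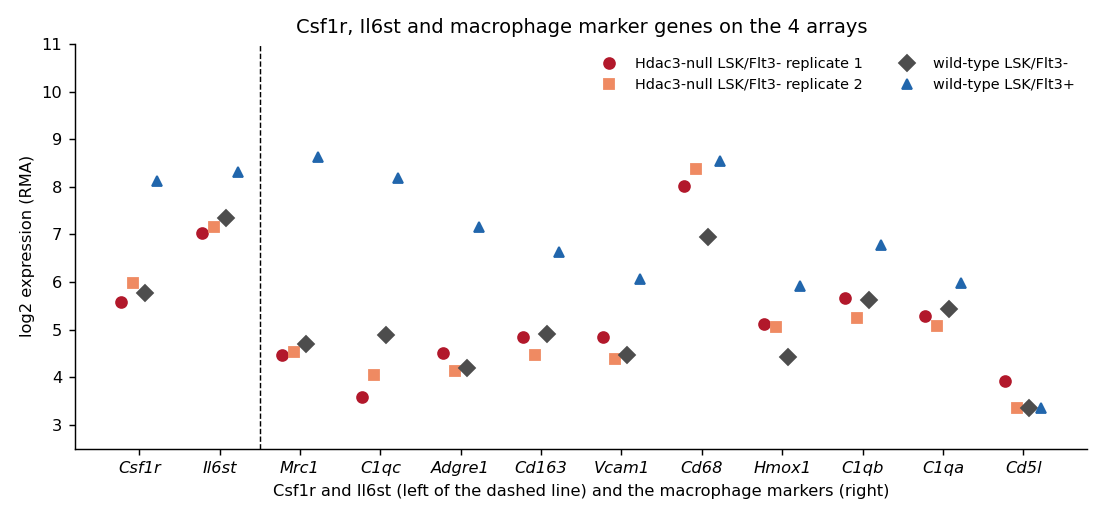
Log2 expression (vertical axis) of Csf1r and Il6st, left of the dashed line, and of the 10 macrophage marker genes, right of it, with 1 symbol for each of the 4 arrays. The wild-type LSK/Flt3+ triangle is the highest symbol for Csf1r (8.11), Il6st (8.32) and every marker but Cd5l, where null replicate 1 is highest.

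Both IL-6 chains read below both wild-type arrays on both null arrays, and neither passed the test. On both null arrays 19.9% of all genes were below wild-type LSK/Flt3- and 25.1% below wild-type LSK/Flt3+. The share below both was not counted, and Il6ra on null replicate 1 differed from wild-type LSK/Flt3- by only -0.05. Il6st (gp130) was 7.04 and 7.17 on the null arrays, 7.35 in Flt3- wild type and 8.32 in Flt3+ wild type. The step from wild-type LSK/Flt3- to LSK/Flt3+ was 0.97, or 1.96-fold, and reached 1.00 after quantile normalization. The difference of null from wild-type LSK/Flt3- cells was -0.25 ± 0.36 (SE; adjusted p = 1), and from wild-type LSK/Flt3+ cells -1.22 ± 0.36 (SE; 95% interval -2.02 to -0.42), which did not pass over all genes (adjusted p = 0.530). With Csf1r it made 2 of 9 receptors at least 2-fold below wild-type LSK/Flt3+ on each null array, where 1.08% of all genes were. Il6ra, the IL-6 binding chain, was 6.15 and 5.97 on the null arrays against 6.20 and 6.36 in the wild-type fractions, a difference of -0.14 ± 0.34 (SE) from wild-type LSK/Flt3- and -0.30 ± 0.34 (SE) from wild-type LSK/Flt3+ cells (adjusted p = 1 for each).

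**Figure D3:**
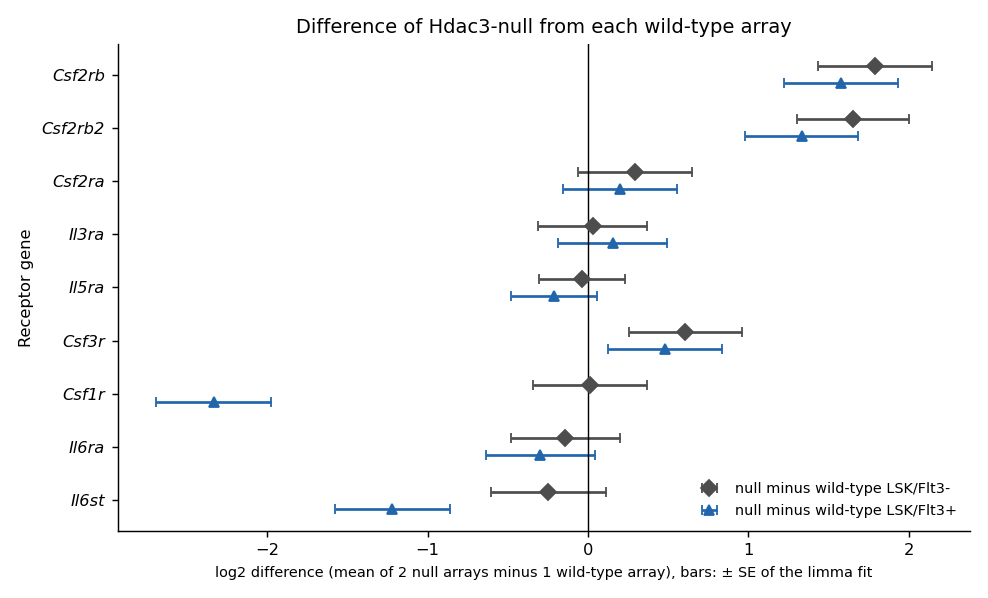
Log2 difference (horizontal axis) of the mean of the 2 null arrays from wild-type LSK/Flt3- (diamonds) and from wild-type LSK/Flt3+ (triangles) for each receptor, with bars of 1 standard error from the limma fit. Csf2rb and Csf2rb2 lie between 1.33 and 1.79 in both comparisons, while Csf1r is at 0.01 in the first and -2.34 in the second.

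Counted by side, 4 of 9 receptors (Csf2rb, Csf2rb2, Csf2ra and Csf3r) were above wild-type LSK/Flt3- on both null arrays, where 41.3% of all genes were, and 2 of 9 (Il6ra and Il6st) were below on both, where 19.9% of all genes were. These shares lie near the background, and the receptors' median difference was 0.03 against 0.09 for all genes. After centring each array on its median, which moved the median gene by -0.11, the counts were 4 above and 4 below. Against wild-type LSK/Flt3+ cells 5 of 9 were above (35.0% of all genes) and 4 of 9 below (25.1% of all genes), with a median of 0.15 against 0.05. There limma called 0 receptors higher (0.0351% of all genes); at an unadjusted p under 0.05 it called 2 higher (1.13% of all genes) and 2 lower (2.31%). Against wild-type LSK/Flt3- cells limma called 0 of the 9 receptors; at an unadjusted p under 0.05 it called 2 higher and 0 lower, and over all genes it called 4 higher (0.0201%) and 0 lower, with 219 higher (1.1%) and 259 lower (1.3%) at that unadjusted p. A robust prior gave 12 higher and 13 lower genes, and still 0 receptors.

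**Figure D4:**
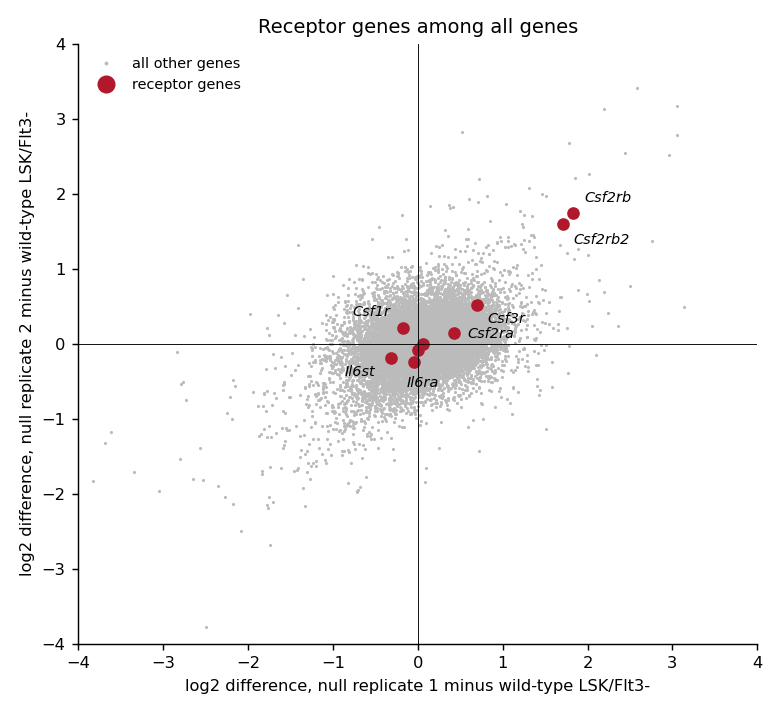
Log2 difference from wild-type LSK/Flt3- of null replicate 1 (horizontal axis) and null replicate 2 (vertical axis) for all genes (grey) and the 9 receptors (red), with 4 genes lying outside the axes. Csf2rb and Csf2rb2 lie at the upper right edge of the cloud, at 1.83 and 1.71 on the horizontal axis, and the other 7 receptors lie within it.

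The genes whose profiles over the 4 arrays lay closest to a receptor were found by the distance between levels after subtracting each gene's own mean, among the 8183 named genes whose mean was 6 or more, for the 4 receptors that spanned at least 2-fold. The closest gene to Csf2rb was Csf2rb2, at a distance of 0.21, and the reverse also held. Next to Csf2rb came H2-T10 (0.37), Akr1c12 (0.39), Pvt1 (0.43) and Nupr1 (0.44), and next to Csf2rb2 came Akr1c12 (0.27), Nupr1 (0.29), the antiviral membrane protein gene Ifitm1 (0.36) and the GTPase gene Gimap7 (0.38). Csf3r ranked 165 from Csf2rb, and the GM-CSF and IL-3 alpha chains ranked 1098 and 2595. The closest to Csf1r were the macrophage perforin gene Mpeg1 (0.42), the MHC class II genes H2-Ab1 (0.52) and Cd74 (0.58), Selenop (0.59) and Entpd1 (0.67). The closest to Il6st were Hdac9 (0.10), Cd93 (0.13), Nfkbia (0.14), Tubb6 (0.15) and Il10rb (0.15), and Il6st itself ranked 29 from Csf1r. Neighbours were picked for likeness to the receptor, so sharing its high arrays follows from the choice and is no separate support. Mpeg1, Cd74 and Hdac9 met the mean of 6 only through the wild-type LSK/Flt3+ array, and Akr1c12 and Pvt1 only through the null arrays. These ranks rest on 4 arrays and describe likeness over these arrays alone.

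Granulocyte-monocyte progenitor markers were high on the same arrays as the beta chains. Counts against wild-type LSK/Flt3- are to be read beside 41.3% of all genes above on both null arrays and 19.9% below. Of 7 granulocyte-monocyte progenitor markers, 6 were above wild-type LSK/Flt3- on both null arrays, with a median of 1.39 and a summed log2 level of 58.9 and 61.7 on the null arrays against 50.8 in Flt3- wild type and 52.3 in Flt3+ wild type. Ms4a3, a membrane protein gene of those progenitors, rose by 3.11 (± 0.35, SE; limma adjusted p = 0.0321), a call lost after median centring (adjusted p = 0.0962) and quantile normalization (adjusted p = 0.138), and the granule protease gene Ctsg was at 1.75 (adjusted p = 0.403). Of 8 mast cell and basophil markers 6 were above wild-type LSK/Flt3- on both null arrays and 2, the protease genes Cpa3 (-0.73) and Tpsb2 (-0.24), below. Against wild-type LSK/Flt3+ 4 were above (35.0% of all genes) and 3 below (25.1% of all genes), with a median of 0.10, Prss34 at -0.93 and Mcpt8 at -0.57. The summed level was 50.6 and 56.5 on the null arrays and 45.9 and 51.1 in the wild-type fractions, so that null replicate 1 lay below wild-type LSK/Flt3+. The IgE receptor gene Fcer1a was 6.51 and 7.44 on the null arrays and 4.31 and 5.53 in the wild-type fractions (difference from LSK/Flt3- 2.66, adjusted p = 0.148, and 0.00929 with a robust prior), and the granzyme gene Gzmb was at 1.53 (adjusted p = 0.526); against wild-type LSK/Flt3+ Gzmb was at 1.66 (adjusted p = 0.115, and 0.0242 with a robust prior). Mature neutrophil markers were mixed, with 5 of 8 above and 3 of 8 below, S100a8, a calgranulin gene, at -1.36 and the granule gene Ngp at 1.25 (0.85 on null replicate 1 and 1.64 on null replicate 2). Their summed level was 42.7 and 44.1 on the null arrays and 43.2 and 40.1 in the wild-type fractions. Eosinophil markers, whose lineage uses Il5ra, had 1 of 4 above and 1 of 4 below, with Siglecf at 0.72 and Epx at -0.43 and a summed level of 22.7 and 24.9 against 23.1 and 23.8. The neutrophil and eosinophil sums on null replicate 1 were thus below those of wild-type LSK/Flt3-. The part of these cell types in the beta chain values was not tested.

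Among other genes of the receptors' pathways, 68 of 76 listed were measured, of which 0 passed the test against wild-type LSK/Flt3- cells in either direction. Of the 68, 31 were above on both null arrays (41.3% of all genes were) and 15 below (19.9% of all genes), counts near that background, with a median difference of 0.09 against 0.09 for all genes. The counts of each list are to be read against the same 41.3% and 19.9%. Of the 10 ligand genes 6 were above and 1 below (median 0.12), and those farthest from wild type were Csf1, which encodes M-CSF, at 0.47 (0.63 on null replicate 1 and 0.32 on null replicate 2), and Csf2, which encodes GM-CSF, at 0.35. The Csf2 value rests on null replicate 1, at 0.70, since null replicate 2 was at 0.010. Csf2 read 4.46 and 3.77 on the null arrays and 3.76 and 3.96 in the wild-type fractions. These levels lay under each array's lower quartile of genes, which ran from 4.38 to 4.65. Without a detection call Csf2 may not stand above background. Of the 15 kinases, STATs and adaptors 6 were above and 7 below (median -0.02), and the largest differences were 0.68 for the PI3-kinase gene Pik3cd (0.34 on null replicate 1 and 1.01 on null replicate 2) and 0.44 for the adaptor gene Gab2. Of 13 negative regulators 8 were above and 1 below (median 0.17). Socs2, a feedback inhibitor induced by STAT5, stood at 7.06 and 6.69 on the null arrays against 5.91 and 6.02 in the wild-type fractions, above both on both arrays (difference from LSK/Flt3- 0.96 ± 0.36, SE; adjusted p = 1), and Socs1 was at 0.38 (0.53 on null replicate 1 and 0.22 on null replicate 2). Of 9 genes induced by STAT3 or STAT5, 4 were above and 2 below (median 0.05), with the survival kinase gene Pim1 at 0.62 (0.44 on null replicate 1 and 0.80 on null replicate 2). The cyclin gene Ccnd1, at -0.49, was -0.90 on null replicate 1 and -0.079 on null replicate 2, so its value rests on null replicate 1. Of 9 transcription factors of myeloid receptor genes, 4 were above and 0 below (median 0.16), led by Cebpa at 0.76 and Runx1 at 0.76.

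The receptors for other blood cytokines farthest from wild type were below it. Of 12 measured, 3 were above wild-type LSK/Flt3- on both null arrays and 4 below. Flt3, the receptor that defines the sort gate, was 7.84 and 7.02 on the null arrays against 9.18 and 10.07 in the wild-type fractions, and Il18r1, an IL-18 receptor chain, was 5.08 and 4.84 against 6.54 and 6.87. These were at least 2-fold below both wild-type arrays on both null arrays, with differences of -1.75 (adjusted p = 0.692) and -1.58 (adjusted p = 0.476) from wild-type LSK/Flt3- cells. Of all genes, 0.381% were at least 2-fold below wild-type LSK/Flt3- on both null arrays, and 1.08% below wild-type LSK/Flt3+. Against wild-type LSK/Flt3+ cells limma called 2 of the 68 pathway genes lower (0.281% of all genes) and 0 higher (0.0351% of all genes). These 2 were Flt3 with a difference of -2.64 (limma adjusted p = 0.0317) and the lymphoid receptor gene Il7r with -2.13 (adjusted p = 0.0231). The sort fixed the direction for Flt3, since Flt3- cells were set against Flt3+ cells there, so Flt3 is a check of the gate and not a result. The Flt3 call was lost with a minimum mean of 6 (adjusted p = 0.0772). Il18r1 was at -1.91 (adjusted p = 0.0559) there and passed after median centring (0.0208), quantile normalization (0.0302) and cyclic loess (0.0115) and with a robust prior (0.0066).

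**Figure D5:**
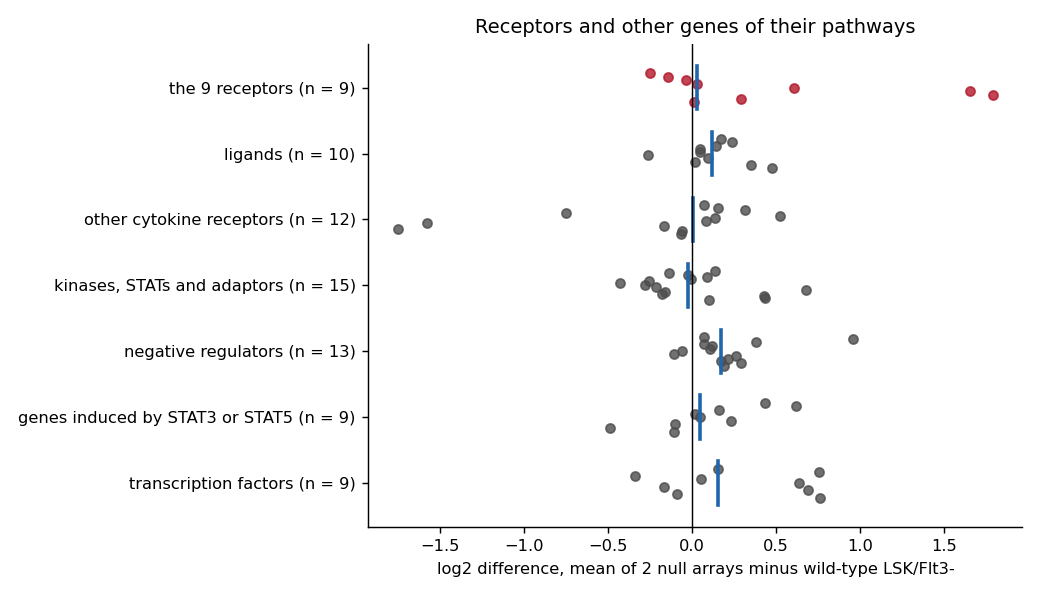
Log2 difference of the mean of the 2 null arrays from wild-type LSK/Flt3- (horizontal axis) for the 9 receptors (red) and the measured genes of 6 pathway lists (grey), 1 point per gene, with each list's median as a blue line. All list medians lie between -0.02 and 0.17, and Csf2rb and Csf2rb2, at 1.79 and 1.65, lie above every other point.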

How the data were processed

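RNA of sorted marrow cells was measured on 4 arrays, and the labels name the PerfectPure kit and standard Affymetrix labelling. The authors deposited 1 log2 value for each probe set; the submitters' processing notes name RMA and affy 1.23. No genome build was given. The array medians differ, and no source states how the arrays were scaled to each other. No depth or detection call comes with them, and the number of arrays limits the precision.

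Of 35556 probe sets, 21789 carried a single gene symbol in the platform's annotation, 1621 several and 12146 none; the last kinds were left out. The probe set with the highest mean stood for each of 19938 genes. All 4 arrays entered a limma 3.58.1 fit (R 4.3.3) of 3 groups with a mean-dependent prior, 1 residual and 9.01 prior degrees of freedom. The residual one comes from the null arrays, and the spread of single wild-type arrays is taken to be the same. Tests were two-sided with Benjamini-Hochberg adjustment across all genes and a threshold of 0.05. The fit was tested on simulated data. The wild-type arrays were compared without a test.

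The members and lists were chosen with earlier results of these data known. Named were all members, Hdac3, the gate genes, pathway genes past the test or at least 2-fold away on both null arrays, the 2 farthest genes of each list described, and the 5 nearest profiles; predicted genes were passed over. Mrc1, Adgre1, Cd163, Cd5l, Cpa3, Tpsb2, Prss34, Mcpt8 and the printed promoters were chosen after their values were seen. Other settings tried were median centring, quantile and cyclic loess normalization, a minimum mean of 6, the mean of all probe sets, robust or constant priors and, added after seeing the data, a fit without the wild-type LSK/Flt3+ array.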

Additional observations from a re-analysis of the deposited data

How the results depend on the processing

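Csf1r stayed past the test against wild-type LSK/Flt3+ cells in all 7 other settings run there, and no other receptor passed in any setting, in either comparison. The minimum mean of 6 is no check on Csf1r, which met it only through the wild-type LSK/Flt3+ array, at 8.11. Its other arrays read 5.59, 5.97 and 5.77. The adjusted p of Csf2rb against wild-type LSK/Flt3- ran from 0.0866 to 0.529 and that of Csf2rb2 from 0.141 to 0.583, lowest with robust estimation of the spread. Against wild-type LSK/Flt3+ cells they ran from 0.0714 to 0.286 and from 0.179 to 0.411. The count of all genes past the test against wild-type LSK/Flt3-, 4 as reported, was 2 after median centring, 2 after quantile normalization and 25 with robust estimation, and cyclic loess split it into 4 higher and 1 lower. Against wild-type LSK/Flt3+ the count, 63 as reported, was 95 after centring, 114 after cyclic loess, 22 with a minimum mean of 6 and 114 with robust estimation. The receptors at least 2-fold apart between the wild-type arrays, 1 as reported, were 2 after quantile normalization, with Il6st at 1.00. Differences from wild-type LSK/Flt3- turned negative after centring, quantile normalization and cyclic loess, to -0.078, -0.021 and -0.053 for Il3ra and to -0.095, -0.11 and -0.064 for Csf1r; the median gene itself moved by -0.108, -0.095 and -0.098. With a single null array left there is no residual degree of freedom and no test, and counts on both null arrays cannot be had; Csf2rb was then at 1.74 without replicate 1 and 1.83 without replicate 2, and Csf1r against wild-type LSK/Flt3+ at -2.14 and -2.53. Il5ra, with a mean under 6, has no value under that filter. No paired analysis was possible because each wild-type fraction had 1 array against 2 null arrays.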

Other observations

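Markers of the remaining lineages were read in the same null against wild-type LSK/Flt3- comparison. Over all genes 41.3% were above on both null arrays there and 19.9% below. Slamf1, which encodes the stem cell antigen CD150, was 8.52 and 8.17 on the null arrays against 6.16 in Flt3- and 5.08 in Flt3+ wild type; its difference was 2.18 from the former (limma adjusted p = 0.174, and 0.0195 with a robust prior), and it rose by 3.27 over the latter (adjusted p = 0.0051). Mecom, a stem cell transcription factor gene, was at -1.32, and of the 6 stem cell markers 2 were above on both null arrays and 2 below, with a median of -0.05. Among 4 erythroid markers the carbonic anhydrase gene Car1 was 6.44 on null replicate 1 and 10.92 on null replicate 2, against 11.81 and 11.37 in wild type, so the null arrays differed from each other more than null replicate 2 did from wild type. Rhag, another erythroid gene, was at -2.17 (-2.80 on null replicate 1 and -1.54 on null replicate 2); 0 of the 4 were above on both null arrays and 2 below, with a median of -1.17. Of 5 megakaryocyte markers 3 were above and 1 below, with a median of 0.13. Ppbp was at 1.67, but 0.52 on null replicate 1 and 2.83 on null replicate 2, Vwf was at 1.30 (0.71 and 1.89), Itga2b was at -0.23, and Pf4 lay on both sides of wild type. Of 6 B lineage markers 1 (Pax5, 0.28) was above and 3 below, with a median of -0.21, Vpreb1 at -1.34 and Cd79b at -0.54 (-0.89 and -0.18). Of 6 T and NK markers 4 were above and 0 below, with a median of 0.34. Nkg7 was at 1.11, but 0.37 on null replicate 1 and 1.85 on null replicate 2, Cd8a was at 0.51, and Cd3e (0.054) and Cd4 (-0.025) lay on both sides of wild type. As reported, none of these genes passed the test against wild-type LSK/Flt3- cells. Itga2b, Pf4, Pax5, Cd3e and Cd4 were named after their values were seen.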
